A study of Schizosaccharomyces pombe with 2 samples.

Results

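Small RNA reads from the phosphate-regulated genes of the fission yeast Schizosaccharomyces pombe, and from the noncoding rows beside them, were compared between cells lacking exo2 (exo2Δ) and wild-type (WT) cells. The rule that picks the members uses names and positions, not measured values, but the genes were chosen with earlier results of these data known. It takes the rows of pho1, pho84, tgp1 and pho4, plus every XUT, noncoding RNA (ncRNA) gene or other noncoding transcription unit that overlapped one of these genes, or lay within 2500 nt upstream of it, on either strand. This gave 7 members, 4 genes and 3 noncoding rows, of 9139 features in the table (coding exon rows left out). XUTs are long noncoding RNAs called by the study where total RNA sequencing showed more signal without Exo2, the fission yeast form of the cytoplasmic 5′–3′ exoribonuclease Xrn1.

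There was 1 library per strain, YAM2397 (exo2Δ::kanMX4) and YAM2394 (WT). Both were h+ and carried the alleles ade6-M210, leu1-32 and ura4-D18. Per the study's methods, they were bought ready-made, and cells were harvested while growing exponentially in YES, a rich medium. Gel-purified RNAs of 10 to 40 nt were sequenced from one end for 40 nt. The exo2Δ strain is a constitutive deletion represented by a single strain, and no value below has a replicate error or a test between strains.

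In fission yeast, pho1, pho84 and tgp1 form the phosphate (PHO) regulon, which is switched on when phosphate runs short. In rich medium each of them is held down by transcription of a long noncoding RNA that starts upstream and runs across its promoter in the same direction. These RNAs are called prt or nc-pho1 at pho1, prt2 at pho84 and nc-tgp1 at tgp1. The zinc finger factor Pho7 activates the regulon, and the RNA-binding protein Mmi1, which recognises short motifs in meiotic and noncoding RNAs, acts on some of these noncoding RNAs. The acid phosphatase gene pho4 is controlled by thiamine rather than by phosphate.

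Features held 13678760 reads in exo2Δ and 13555082 in WT, where a read in overlapping rows counts in each of them. The median mRNA row had 90 reads in exo2Δ and 98 in WT, whereas the median XUT row had 3 in exo2Δ and 2 in WT, and the median ncRNA gene row 5 in exo2Δ and 6 in WT. The coding exons of the deleted gene exo2 had 26 reads in the exo2Δ library, against 251 in the WT library. For ura4, which carries the D18 allele in both strains, the coding exon had 1 read in each library. Counting followed the strand. Among 1962 pairs of rows on opposite strands in which one lay inside the other, the inner row held more WT reads in 292, and this occurred in 0 of 1002 pairs on the same strand.

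The phosphate genes differed between the strains in opposite directions. The transporter gene pho84 and the acid phosphatase gene pho1, which are neighbours, had about 3-fold fewer small RNA reads in exo2Δ, whereas tgp1, which encodes a glycerophosphodiester transporter, had about 3-fold more, and pho4 differed little. None of the 3 noncoding rows passed 2-fold. With 1 read added to both libraries, 1 of the 7 members was past 2-fold higher in exo2Δ (tgp1) and 2 were past 2-fold lower (pho1 and pho84). Of the 5945 features that averaged 10 or more reads, 3.97% were past 2-fold higher and 6.91% lower. Among mRNAs alone these shares were 2.4% and 5.05% of 4749, against 1 and 2 of the 4 genes. As the genes were chosen with earlier results known, these counts are a description only. All 7 members averaged 10 or more reads, so that the filter removed none.

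**Figure D1:**
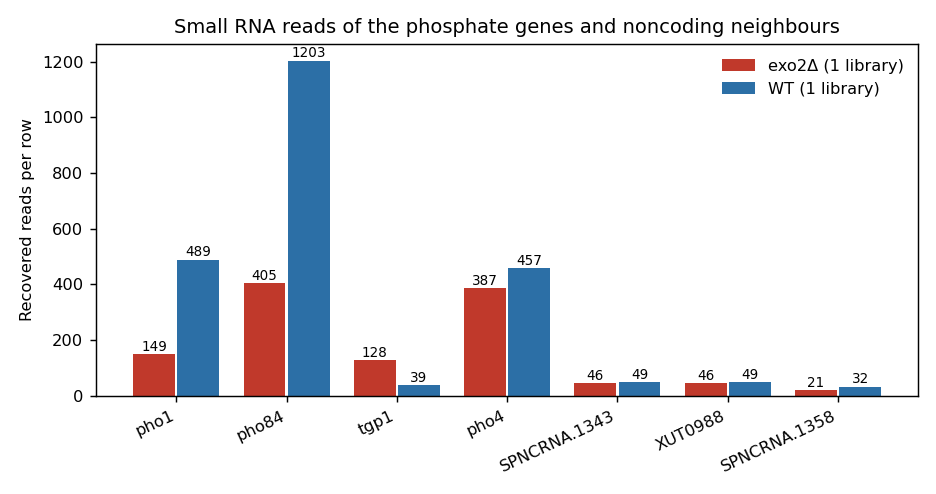
Recovered small RNA reads per row (y axis) for the 4 phosphate genes and the 3 noncoding rows (x axis), in the exo2Δ library (red, left) and the WT library (blue, right), 1 library each and therefore without error bars. pho1 and pho84 are lower in exo2Δ, tgp1 is higher (128 against 39 reads), and the noncoding rows hold at most 49 reads.

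The pho1 and pho84 genes lie head to tail on the plus strand of chromosome II. The pho84 row (SPBC8E4.01c) spans 4444125 to 4446200 and the pho1 row (SPBP4G3.02) 4446373 to 4449053, in the coordinates of the files (ASM294v2 per the submitters' processing notes), with 172 nt between them. In the RefSeq annotation of the current assembly, ASM294v3, nc-pho1 runs from 4446359 to 4448918 on the same strand and starts 1147 nt before pho1 does. Since 99.5% of nc-pho1 (2546 nt) lies inside the deposited pho1 row, reads of nc-pho1 and of the pho1 mRNA were counted together in that row. Similarly, prt2 runs from 4442542 to 4445970 in RefSeq, starting 1559 nt before pho84. It overlaps both pho84 and the row SPBC8E4.02c, a coding gene in the table that RefSeq lists as a synonym of prt2. On the same strand, prt2 covers most of the deposited pho84 row. Reads of prt2 and of the pho84 mRNA were therefore counted together in that row as well.

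pho1 encodes the major secreted acid phosphatase of phosphate-starved cells. Its row had 149 reads in exo2Δ and 489 in WT, or 0.0555 tags per nt in exo2Δ and 0.182 in WT. The density was 3.29-fold lower in exo2Δ, with an exact 95% interval of 2.73 to 3.98. Such intervals cover the counting error of the reads only, not the variation between cultures. By log2 ratio (-1.71), 36 of 4749 mRNAs were as low as pho1, itself included, and 14 of the 2454 that averaged 100 or more reads. Its place by density among 5129 mRNAs was 2140 in exo2Δ and 716 in WT.

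The difference at pho1 was not even along the row. The single coding exon (1362 nt) had 105 reads in exo2Δ and 413 in WT, 3.94-fold lower (3.17 to 4.93). The other 1319 nt, of which 1184 precede the coding sequence, had 44 reads in exo2Δ and 76 in WT, 1.73-fold lower (1.18 to 2.57). The intervals of these pieces did not overlap. Thus 29.5% of the reads of the pho1 row lay outside the coding exon in exo2Δ, against 15.5% in WT, and the density outside was 0.433 of that inside in exo2Δ and 0.190 in WT. The log2 ratio outside minus that inside was 1.19 for pho1. Over the 2948 mRNAs that averaged 10 or more reads in both pieces, its median was 0.04 with a robust SD of 0.57, and 116 were as high as pho1. Most of the outer piece precedes the RefSeq start of pho1 and is covered there by nc-pho1 alone, whereas both RNAs cover the coding exon. Their reads cannot be told apart in that exon, and whether this layout bears on the uneven difference was not tested.

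pho84 encodes the inorganic phosphate transporter of the plasma membrane. It was the most densely covered of the 4 genes in WT. Its row had 405 reads in exo2Δ and 1203 in WT (0.195 tags per nt in exo2Δ and 0.579 in WT), 2.98-fold lower in exo2Δ (2.66 to 3.34) with a log2 ratio of -1.57. Of 4749 mRNAs, 52 were as low, and 20 of those 2454. Here both pieces differed to a like degree. The coding exon (1719 nt) had 352 reads in exo2Δ and 1013 in WT, 2.88-fold lower (2.55 to 3.27), and the other 357 nt had 53 in exo2Δ and 190 in WT, 3.59-fold lower (2.64 to 4.97). The outside minus inside difference was -0.30, and 786 of 2948 mRNAs were as low.

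Upstream of pho84, SPBC8E4.02c (4442574 to 4444191, plus strand), which covers the first part of prt2, was also lower in exo2Δ. It is no member by the rule, since the table lists it as a coding gene, and it is named here after its values were seen. It had 190 reads in exo2Δ and 366 in WT (0.117 tags per nt in exo2Δ and 0.226 in WT), 1.93-fold lower (1.62 to 2.31), a log2 ratio of -0.95. Its interval did not overlap that of pho84, whose row it overlaps by 67 nt. Across the locus, then, all 3 rows on the plus strand from prt2 to pho1 had fewer reads in exo2Δ, and pho1 and pho84 stayed past 2-fold lower under each of the 3 other scalings tried. For pho1 and pho84 together the reads were 554 in exo2Δ and 1692 in WT, 3.06-fold lower (2.78 to 3.37).

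No row of the noncoding classes met the rule at pho84 or pho1. The nearest upstream was XUT1265, 3903 nt from pho84, with 7 reads in exo2Δ and 2 in WT. Downstream, XUT1266 lay 777 nt from pho1 and had 1 read in exo2Δ and 0 in WT, a level at which no difference could be detected, as a count of 0 allows up to 3 reads.

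**Figure D2:**
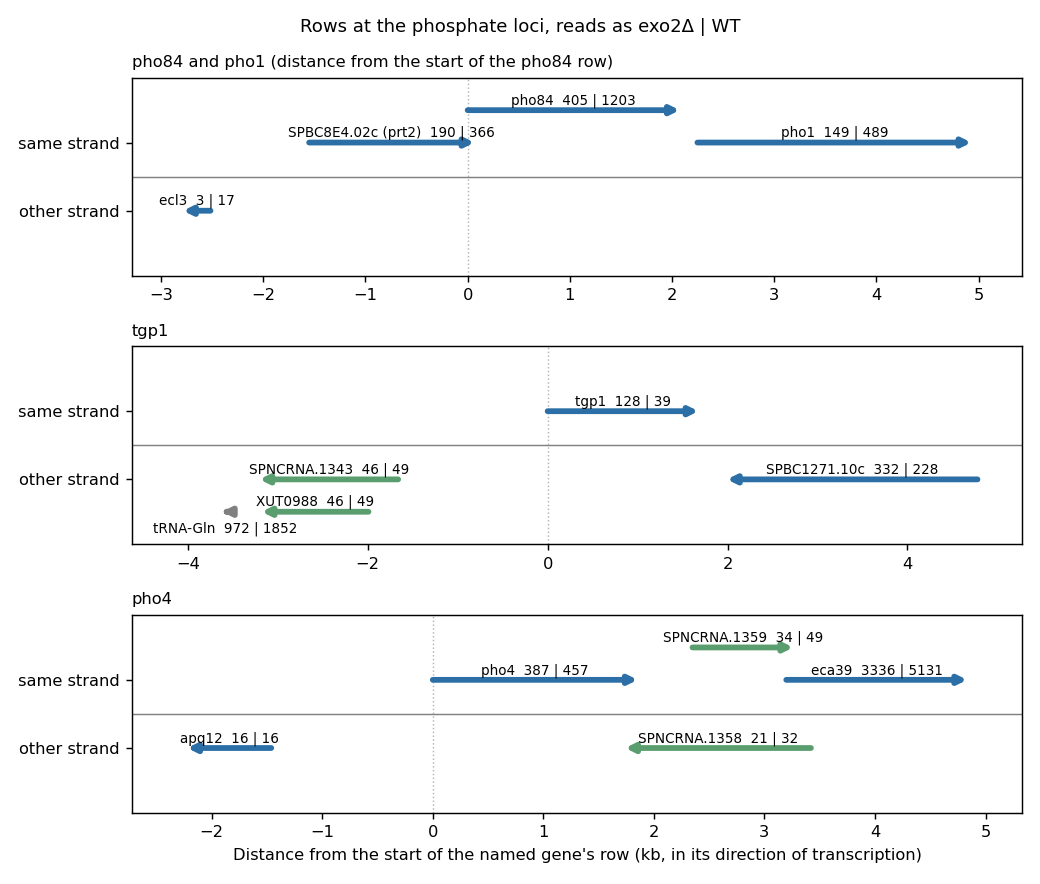
Rows around the phosphate genes, drawn to scale as arrows in their direction of transcription, with the distance in kb from the start of the pho84, tgp1 or pho4 row on the x axis (blue, coding rows; green, noncoding rows; grey, tRNA). Labels give the reads in exo2Δ, then in WT. The 3 plus-strand rows of the pho84 and pho1 locus are all lower in exo2Δ, while tgp1 is higher and the noncoding rows upstream of it hold 46 reads in exo2Δ and 49 in WT.

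tgp1 (SPBC1271.09) lies far from this locus, at 350692 to 352369 on the minus strand of chromosome II. It had 128 reads in exo2Δ and 39 in WT (0.0761 tags per nt in exo2Δ and 0.0232 in WT), the lowest density of the 4 genes in WT. The density was 3.28-fold higher in exo2Δ (2.27 to 4.82), a log2 ratio of 1.69, and 30 of 4749 mRNAs were as high. Its place by density among mRNAs was 1566 in exo2Δ and 3948 in WT. The deposited tgp1 row holds only the coding exons (1632 nt) and an intron of 46 nt, so untranslated parts could not be counted. In RefSeq the gene spans 2102 nt, against 1678 nt for this row. The intron had 0 reads in both libraries, and the rest lay in the coding exons. This share cannot be set against those of the other 3 genes, whose rows extend beyond the coding sequence.

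RefSeq places nc-tgp1 at 352335 to 354234 on the same strand, starting 1823 nt before the tgp1 mRNA. Only 35 nt of it fall inside the deposited tgp1 row. Thus the tgp1 reads, unlike those of the pho1 and pho84 rows, hardly include its upstream noncoding RNA. nc-tgp1 itself has no row in the table, and its reads were not analysed here.

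The pair of noncoding members at tgp1 lies on the opposite strand, pointing away from the gene. SPNCRNA.1343 (354031 to 355573, plus strand) starts 1661 nt upstream of the tgp1 row, and its first 204 nt overlap the start of nc-tgp1 in RefSeq. It had 46 reads in exo2Δ and 49 in WT (0.0297 tags per nt in exo2Δ and 0.0318 in WT). The fold was 0.937 with an interval of 0.613 to 1.43, so that neither direction was detectable at this depth. XUT0988 (354361 to 355549) lies wholly inside it and holds the same reads, 46 in exo2Δ and 49 in WT, so that both rows are a single measurement. The remaining 354 nt of SPNCRNA.1343 had 0 reads in both libraries. Although its reads did not differ detectably, the density of XUT0988 stood high in its class, at place 52 of 1638 XUTs in each library. By log2 ratio the pair was at -0.09 (0.06, of opposite sign, when the libraries were scaled on the median ratio of mRNAs), whereas tgp1 was at 1.69.

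pho4 (SPBC428.03c, chromosome II, 445324 to 447177, minus strand) encodes a thiamine-repressible acid phosphatase. In exo2Δ its row had 387 reads, against 457 in WT (0.208 tags per nt in exo2Δ and 0.246 in WT). The density was 1.18-fold lower in exo2Δ (1.03 to 1.36), a log2 ratio of -0.24 beside a median of -0.15 over all mRNAs, and 2045 of 4749 mRNAs were as low. Within the row, the coding exon (1392 nt) had 290 reads in exo2Δ and 306 in WT, a fold of 0.946 (0.803 to 1.11). The other 462 nt had 97 reads in exo2Δ and 151 in WT, 1.56-fold lower (1.20 to 2.03). The difference between these pieces, -0.56 on the log2 scale, was matched or exceeded by 437 of 2948 mRNAs.

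SPNCRNA.1358 (443757 to 445437, plus strand) is the only antisense member. It overlaps the end of pho4 by 114 nt (6.78% of its length) and its other neighbour, the coding gene eca39 (SPBC428.02c), by 224 nt. It had 21 reads in exo2Δ and 32 in WT (0.0125 tags per nt in exo2Δ and 0.0190 in WT), a fold of 0.655 with an interval of 0.359 to 1.17 that included 1. eca39, which encodes a branched chain amino acid aminotransferase, had 3336 reads in exo2Δ and 5131 in WT, 1.54-fold lower (1.48 to 1.61). Neither noncoding locus thus had a detectable difference, and over the 3 noncoding rows the reads were 113 in exo2Δ and 130 in WT, a fold of 0.867 (0.668 to 1.12). With XUT0988 counted once inside SPNCRNA.1343, they were 67 in exo2Δ and 81 in WT, a fold of 0.825 (0.588 to 1.16). Of the 989 noncoding rows that averaged 10 or more reads, 10.7% were past 2-fold higher in exo2Δ and 13.5% lower, against 0 and 0 of these 3 members.

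**Figure D3:**
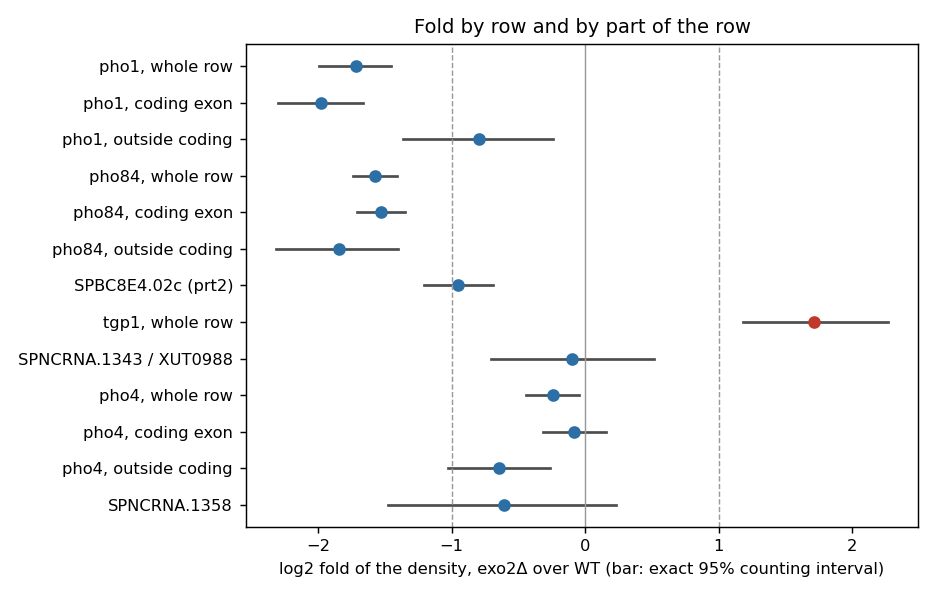
Log2 fold of the density, exo2Δ over WT without added reads (x axis), by row (y axis). Shown are the whole row, the coding exon and the rest of the row of pho1, pho84 and pho4. The whole rows of tgp1, SPBC8E4.02c (prt2) and the noncoding neighbours are also shown. Bars are exact 95% intervals of the read counts (counting error only), and dashed lines mark 2-fold. The coding exon of pho1 (3.94-fold lower) and the rest of its row (1.73-fold lower) have intervals that do not overlap, whereas those of pho84 do.

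The order of the 4 genes by density of the whole deposited row therefore differed between the libraries. In exo2Δ it was pho4, pho84, tgp1 and pho1, and in WT it was pho84, pho4, pho1 and tgp1. In exo2Δ, pho4 was 1.07-fold above pho84 (0.928 to 1.23), a gap within counting error, and tgp1 was 1.37-fold above pho1 (1.08 to 1.75). In WT each step was larger than its counting error, with pho84 2.35-fold above pho4 (2.11 to 2.62), pho4 1.35-fold above pho1 (1.19 to 1.54) and pho1 7.85-fold above tgp1 (5.66 to 11.2). These rows differ in make-up, as 1184 nt of the pho1 row precede its coding sequence and the tgp1 row has 0. By coding exons alone, pho1 (0.303 tags per nt) stood above pho4 (0.220) in WT. In exo2Δ, tgp1 (0.0783) and pho1 (0.0769) were then nearly equal. The middle of the order thus depends on which parts are counted. Summed over the 4 genes, reads were 1069 in exo2Δ and 2188 in WT, 2.05-fold lower (1.91 to 2.21). Of this sum pho84 gave 405 reads in exo2Δ and 1203 in WT, and pho4 gave 387 in exo2Δ and 457 in WT.

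**Figure D4:**
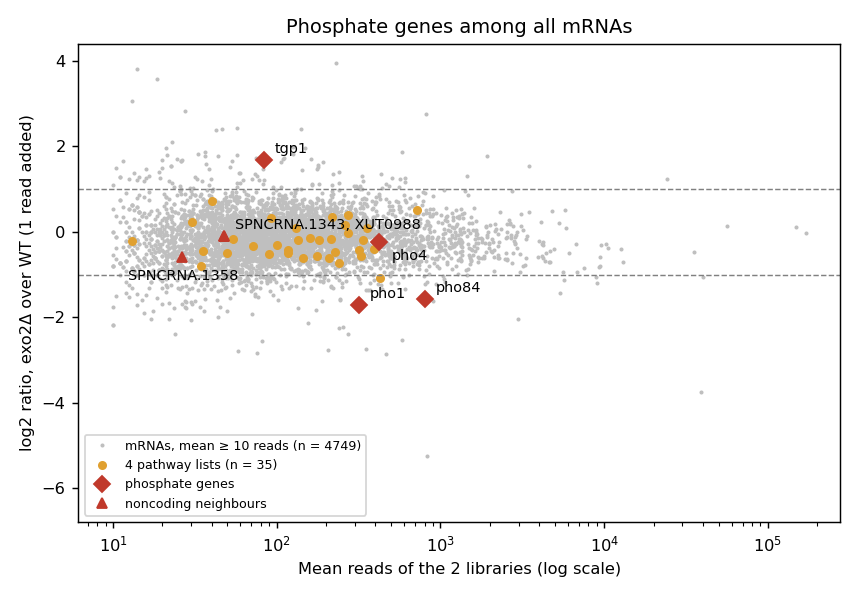
Log2 ratio of exo2Δ over WT with 1 read added (y axis) against the mean reads of both libraries (x axis, log scale), with 1 grey point per mRNA (n = 4749), orange points for 35 genes of the phosphate pathway lists and red symbols for the members. Dashed lines mark 2-fold. pho1 and pho84 lie among the lowest points at their level, tgp1 among the highest, and pho4 and the noncoding rows lie within it.

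The promoters of the members were read for exact matches to a consensus site of the Pho7 activator. The 250 bases before the RefSeq gene start (ASM294v3 coordinates) are shown 5′ to 3′ in the direction of the gene, with each match to the Pho7 consensus site, on either strand, in capitals. pho1 and tgp1 are shown because they hold an exact match, and pho84 because it holds none in this window, although it is of the same regulon. They are pho1 at II:4447256-4447505, plus strand, tgp1 at II:352412-352661, minus strand, and pho84 at II:4443851-4444100, plus strand.
pho1: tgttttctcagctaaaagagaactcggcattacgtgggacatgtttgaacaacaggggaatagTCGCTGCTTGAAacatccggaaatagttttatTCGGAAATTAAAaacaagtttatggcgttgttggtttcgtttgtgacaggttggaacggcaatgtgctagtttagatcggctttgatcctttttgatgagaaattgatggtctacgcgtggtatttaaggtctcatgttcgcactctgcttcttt
tgp1: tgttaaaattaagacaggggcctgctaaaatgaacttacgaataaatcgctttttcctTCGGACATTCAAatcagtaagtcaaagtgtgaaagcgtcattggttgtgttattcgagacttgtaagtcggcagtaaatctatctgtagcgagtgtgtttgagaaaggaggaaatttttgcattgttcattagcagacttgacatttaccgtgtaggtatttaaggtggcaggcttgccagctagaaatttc
pho84: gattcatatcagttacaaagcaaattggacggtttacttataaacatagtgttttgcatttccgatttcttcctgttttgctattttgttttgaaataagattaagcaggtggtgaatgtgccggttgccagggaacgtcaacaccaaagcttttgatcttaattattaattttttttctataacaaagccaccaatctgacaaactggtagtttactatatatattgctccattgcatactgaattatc

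The pho1 promoter held 2 matches, TCGCTGCTTGAA and TCGGAAATTAAA, beginning 187 and 155 bases before the start. The tgp1 promoter held 1, TCGGACATTCAA, beginning 192 bases before the start. All 3 were on the strand of the gene, and neither pho84 nor pho4 had a match in this window. Of all 5111 protein-coding genes, 99 (1.94%) had at least 1. The origin of the consensus is not given here. If it was drawn from the sites of pho1 and tgp1 themselves, their matches were fixed in advance. The contrast of pho1 and tgp1 with pho84, or with the 1.94%, would then carry no information on which promoters share the site. With a match, pho1 was 3.29-fold lower and tgp1 3.28-fold higher in exo2Δ, and pho84, without a match, was lower. Whether the matches bear on these reads was not tested. A match is a description of the letters only, and the lack of an exact match in this window does not show that a promoter has no Pho7 site.

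The core of the motif that Mmi1 recognises, TNAAAC in DNA letters, was counted on the transcribed strand of the noncoding members and of the RefSeq long noncoding RNAs (lncRNAs) that cross the PHO promoters. Below are the stretches of 60 nt with the most matches in 3 of them, 5′ to 3′ with matches in capitals. They are nc-tgp1 at II:353385-353444, minus strand, which lies between tgp1 and its divergent noncoding neighbours, nc-pho1 at II:4446737-4446796, plus strand, inside the deposited pho1 row, and SPNCRNA.1358 at II:444209-444268, plus strand, the densest of the members.
nc-tgp1: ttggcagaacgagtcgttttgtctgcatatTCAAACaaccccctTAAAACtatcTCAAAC
nc-pho1: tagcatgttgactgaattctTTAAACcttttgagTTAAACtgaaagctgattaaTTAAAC
SPNCRNA.1358: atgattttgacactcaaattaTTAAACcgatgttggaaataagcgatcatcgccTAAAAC

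Over their whole length, nc-pho1 had 6 matches (2.34 per kb), prt2 11 (3.21 per kb) and nc-tgp1 6 (3.16 per kb). Of the noncoding members, SPNCRNA.1358 had 7 (4.16 per kb) and SPNCRNA.1343 3 (1.94 per kb). The median over 7133 lncRNAs of the RefSeq annotation was 1.74 per kb, and 70.1% had at least 1. The share of these lncRNAs that were as dense was 13.5% for SPNCRNA.1358, 24.1% for nc-tgp1, 23.4% for prt2, 38.1% for nc-pho1 and 45.9% for SPNCRNA.1343. By the number of matches, which longer RNAs raise, the share of lncRNAs with as many was 0.505% for prt2, 3.55% for SPNCRNA.1358, 5.78% for nc-tgp1 and for nc-pho1, and 25.9% for SPNCRNA.1343. At 3429 nt, prt2 was the longest of these RNAs.

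pho1 and pho4, whose products are both acid phosphatases, are the most alike of the 4 genes in the protein they encode. Translated from the annotated coding exons, Pho1 has 453 residues and Pho4 463, of which 265 of 453 aligned were identical (58.5%). The transporters Pho84 and Tgp1 share 141 of 474 aligned residues (29.7%). The closer pair, pho1 and pho4, had log2 ratios of -1.71 and -0.24, and the transporter pair had -1.57 and 1.69. Whether likeness of the proteins bears on the ratios was not tested.

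No listed regulator or termination factor of the phosphate regulon passed 2-fold, which few mRNAs did (2.4% higher and 5.05% lower). Of 37 genes listed as regulators, termination factors, phosphate storage or thiamine genes, 36 were found in the table and 35 averaged 10 or more reads. Of these, 0 were past 2-fold higher and 1 was past 2-fold lower in exo2Δ, beside 2.4% and 5.05% of mRNAs. Their median log2 ratio was -0.26, against -0.15 for all mRNAs, with 9 genes above 0 and 26 below. The counting interval lay above a fold of 1 in 4 of them and below it in 14. Over all 4749 mRNAs it lay above 1 in 13.9% and below in 29.1%.

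Among the 6 regulators, the median was -0.32 and the range -0.74 to 0.36. The activator pho7 had 126 reads in exo2Δ and 144 in WT, a fold of 0.873 (0.682 to 1.12). The kinase gene csk1, whose loss derepresses the regulon, had 30 reads in exo2Δ and 41 in WT, a fold of 0.730 (0.440 to 1.20). Neither interval left out 1. asp1, which encodes the inositol pyrophosphate kinase, was the only regulator above 0, with 244 reads in exo2Δ and 190 in WT, 1.28-fold higher (1.06 to 1.56). aps1, which encodes an inositol pyrophosphatase of the Nudix family, was 1.41-fold lower (1.07 to 1.84), with 97 reads in exo2Δ and 136 in WT.

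The 20 genes of cleavage, polyadenylation, termination and RNA elimination had a median of -0.20 (-0.79 to 0.72), with 5 above 0 and 15 below. None was past 2-fold, beside 2.4% of all mRNAs higher and 5.05% lower. In the storage list, 3 of 4 genes were found, with a median of -0.57. Among them vtc4, which encodes the catalytic subunit of polyphosphate synthesis, had 263 reads in exo2Δ and 390 in WT, 1.49-fold lower (1.27 to 1.74). The thiamine list had a median of -0.11 over 6 genes, 3 above 0 and 3 below. It contained the 1 gene past 2-fold, thi4, of thiamine phosphate synthesis, with 274 reads in exo2Δ and 579 in WT, 2.12-fold lower (1.83 to 2.45).

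**Figure D5:**
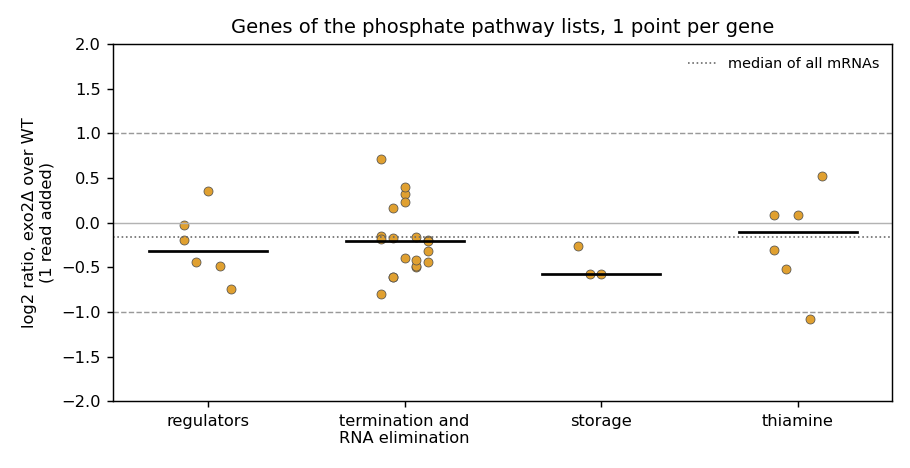
Log2 ratio of exo2Δ over WT with 1 read added (y axis) for the 35 genes of the 4 lists (x axis), 1 point per gene, with the median of each list as a black bar. Dashed lines mark 2-fold and the dotted line the median of all mRNAs (-0.15). 1 gene, thi4, lies past 2-fold, and the list medians run from -0.57 for storage to -0.11 for thiamine.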

How the data were processed

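Small RNA-seq reads (1 library each of exo2Δ and WT) were adapter-trimmed by the authors (cutadapt is named in the submitters' processing notes) and mapped with Bowtie, keeping reads with a unique location and up to 3 mismatches. Whether a read-length filter was applied to the deposited values is not given in the sources used here. The deposited signal is a tag density (tags per nt) for each of 19343 rows, 10204 of them coding exons. Density times length was whole in 100% of WT rows and a whole multiple of 0.998 in 100% of exo2Δ rows (within 0.001), from which reads were recovered.

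Folds are ratios of the deposited densities, with exact Clopper-Pearson 95% intervals. Log2 ratios had 1 read added to both libraries and were computed for features averaging 10 or more reads, which understates the change of low features. With 1 library per strain a count model has no residual degrees of freedom, so none was fitted and no p-value was computed. Alternatives changed the scaling, added reads, filter, fold, upstream window and the part of the gene counted. The calculations were tested on simulated data (Python 3.11.15, SciPy 1.17.1).

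The members and lists were chosen with earlier results of these data known. The genes named were the members, pho7, csk1, asp1, aps1 and vtc4, listed genes past 2-fold, and coding genes overlapping a noncoding member. After values were seen, a gene whose symbol means another gene in RefSeq was dropped from the termination list and duf89 was moved to the regulators. Of 37 listed symbols, 36 matched RefSeq. Sequences and lncRNA positions are RefSeq's, from ASM294v3, in which 98.5% of the deposited coding exons of chromosome II have the same coordinates.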

Additional observations from a re-analysis of the deposited data

How the results depend on the processing

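Of 106 values recomputed under alternatives, 90 were classed as unchanged and 16 as moved. Log2 ratios classed as moved lay outside the counting interval of the deposited value, even where their side of 2-fold was kept. Feature counts on the median ratio of mRNAs were classed as unchanged, although more features were then higher than lower. Other scalings shift every log2 ratio nearly alike, by -0.24 (sn(o)RNA reads), 0.15 (median ratio of mRNAs) or -0.026 (total without the 10 highest features). On sn(o)RNAs, pho84 was at -1.81, pho4 at -0.49 and the sum of the 4 genes at -1.28, and on the median ratio of mRNAs that sum was -0.88, against -1.04 as deposited. Features past 2-fold were 149 higher and 736 lower on sn(o)RNAs (16.8% of calls higher) and 337 and 282 on the median ratio of mRNAs (54.4%), against 236 and 411 as deposited (36.5%). With no filter they were 620 and 957, and among features averaging 50 or more reads 99 and 182, where more or fewer features enter by construction. At 4-fold, 42 and 50 features but 0 and 0 members passed. With an upstream window of 1000 nt, or overlap only, the noncoding sum was -0.59, since SPNCRNA.1358 alone was left. Every scaling, added-read and filter alternative run kept the directions of pho1, pho84 and tgp1 and their side of 2-fold. No paired analysis was possible because there was a single library of each strain. Depth limits the noncoding rows, where the intervals include folds from 0.359 to 1.43.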

Other observations

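The genes flanking pho84 and pho1 differed from those around the other members. This was looked at after values were seen. Within 20000 nt of the locus, 10 other mRNAs (SPBC8E4.02c left out) averaged 10 or more reads. Of these, 3 were past 2-fold higher in exo2Δ and 1 was past 2-fold lower, beside 2.4% and 5.05% of all 4749 mRNAs. Their median log2 ratio was 0.93, opposite in sign to pho1 and pho84. The locus lies in another part of chromosome II than tgp1 and pho4, and whether position bears on the ratios was not tested. Around tgp1 and around pho4 the medians over 14 mRNAs each were -0.12 and -0.01, and 0 passed 2-fold in either direction. The highest was SPBPB2B2.06c (chromosome II, 4469018 to 4471207), with 79 reads in exo2Δ and 14 in WT, 5.63-fold higher (3.17 to 10.8). The best covered, SPBC8E4.03 (4434194 to 4435868), had 295 reads in exo2Δ and 137 in WT, 2.15-fold higher (1.75 to 2.65). The third was cao2, named for copper amine oxidase, with 24 reads in exo2Δ and 9 in WT. The only one past 2-fold lower was ecl3 (SPBC8E4.12c), with 3 reads in exo2Δ and 17 in WT. Most of these genes had few reads, and whether the low rows from prt2 to pho1 and the higher rows around them are related was not tested.

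The tRNA gene SPBTRNAGLN.04, which lies 370 nt from XUT0988, had 972 reads in exo2Δ and 1852 in WT. Its reads were thus lower in exo2Δ while XUT0988 had 46 in exo2Δ and 49 in WT. Whether reads of the tRNA bear on that row was not tested.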
